A study of Mus musculus with 30 samples.

Results

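Glucose can be made as well as used by the kidney, and 5 genes of that work are described here: Pck1, G6pc, Fbp1 and Pcx, which encode enzymes of gluconeogenesis, and Khk, which encodes the enzyme that takes fructose into metabolism. They were chosen by name, with earlier results of these data known, and make up 5 of the 41128 genes in the deposited kidney count file. All 5 had counts in every kidney and all 5 passed the filter on low counts, as did 15034 genes in total.

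The mice were male, and their strain background is labelled C57Bl6J, while the parent lines are described as C57BL/6 and C57BL/6N. WT mice carried the tamoxifen-inducible Smmhc-Cre transgene without loxP sites. KO mice carried the same transgene and Egfr flox/flox, so that the EGF receptor was deleted in vascular smooth muscle cells (VSMC), the cells in which the Smmhc (Myh11) promoter is active, while the tubule cells of the kidney kept the gene. Every mouse of both genotypes received tamoxifen on 5 consecutive days, 1 mg per day, and went on to standard-fat diet (SFD) or high-fat diet (HFD) 7 days later, at the age of 6 weeks, for 18 weeks. Kidney tissue was sequenced in 4 mice of each of the 4 groups WT-SFD, WT-HFD, KO-SFD and KO-HFD. Aorta was sequenced in 3 WT-SFD, 4 WT-HFD, 3 KO-SFD and 4 KO-HFD mice, and 3 mice gave both tissues. The sources used here do not state whether the mice had eaten, or the hour, when tissue was taken. Libraries are named by group, tissue and replicate number, and the numbers do not pair mice across groups. Total counts per library were 16354880 to 28331314 in the kidney (median 19544128) and 6403699 to 13052870 in the aorta (median 8998366).

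Gluconeogenesis builds glucose from lactate, glutamine, other amino acids and glycerol. Pyruvate carboxylase (Pcx) makes oxaloacetate from pyruvate in the mitochondrion, cytosolic phosphoenolpyruvate carboxykinase (Pck1) turns oxaloacetate into phosphoenolpyruvate, fructose-1,6-bisphosphatase (Fbp1) removes a phosphate from fructose-1,6-bisphosphate, and the catalytic subunit of glucose-6-phosphatase (G6pc) releases free glucose. In the kidney this takes place in the proximal tubule, where Pck1 is also known to be induced by acidosis and fasting. Ketohexokinase (Khk) phosphorylates fructose in the same cells, and triokinase (Tkfc) acts further along the path by which fructose carbon enters the triose pool.

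The tissue label was checked against proximal tubule markers. Of 18 markers, 17 had counts in every kidney, and Dpep1 was at 0 throughout. Dpep1 lies in a stretch of 314 protein-coding genes at the end of chromosome 8 that are all without counts in both tissues, so its 0 bears on the file and not on the tissue. Their summed level was 28610 to 53609 FPM (fragments per 1000000 of the library size after TMM scaling), lowest in WT-HFD kidney 1 and highest in WT-SFD kidney 4, and Kap was the most abundant of them in every kidney.

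The start regions of Pck1 and G6pc are shown because these were the most variable of the 5 genes across the kidneys. RefSeq sequence (GRCm38.p6) was used for windows of 300 bases, 250 of them before the start site, which were found for all 5 genes, with 2 start sites for Pcx. Printed are the bases of the window that lie upstream of the annotated gene, on the plus strand. Capitals mark the cyclic AMP response motif TGACG, which reads CGTCA where it lies on the other strand; the G6pc stretch holds none. The stretches lie at chr2:173152823-173153047 for Pck1 and at chr11:101367466-101367560 for G6pc.
Pck1: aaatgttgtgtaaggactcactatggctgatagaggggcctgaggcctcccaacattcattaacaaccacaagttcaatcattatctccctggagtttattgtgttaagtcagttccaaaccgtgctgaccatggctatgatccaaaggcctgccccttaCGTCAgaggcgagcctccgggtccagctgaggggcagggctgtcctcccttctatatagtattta
G6pc: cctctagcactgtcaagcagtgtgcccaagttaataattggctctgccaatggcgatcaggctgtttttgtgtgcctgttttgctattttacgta

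Counted from the RefSeq start, the Pck1 window held TGACG at -90 on the minus strand. The G6pc window held TATAAA at -29, which lies downstream of the printed stretch. The Khk window held TGACG at -74 on the minus strand. The Fbp1 window and both Pcx windows held none of the 5 motifs searched on both strands, which also included TGTTTAC (forkhead), CAAAGTCCA (HNF4) and TGTTCT (glucocorticoid response). Among all 32851 promoter windows of this length, 20.8% held TGACG, 3.65% TGTTTAC, 0.475% CAAAGTCCA, 19% TGTTCT and 13.6% TATAAA. A match is a description of the letters in the window.

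Khk, Pck1 and Fbp1 were the most abundant of the 5 transcripts in the kidney, and G6pc and Pcx were lower. Per kilobase of exon, the level over all 16 kidneys was 802 ± 174 FPM per kb for Khk, 775 ± 434 for Pck1, 669 ± 121 for Fbp1, 231 ± 120 for G6pc and 220.1 ± 54.2 for Pcx (mean ± SD, n = 16). The upper 3 did not differ from their neighbours in this order beyond their spread, since Khk was above Pck1 in 10 of 16 kidneys and Pck1 above Fbp1 in 10 of 16. Fbp1 was above G6pc in 16 of 16, and G6pc was above Pcx in 8 of 16. The SD was 56.0% of the mean for Pck1 and 51.7% for G6pc, against 24.6% for Pcx, 21.7% for Khk and 18.1% for Fbp1.

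The genes lie on different chromosomes of GRCm38, as annotated by GENCODE. Pck1 spans chr2:173153048-173159273 on the plus strand, G6pc chr11:101367561-101377903 on the plus strand, Fbp1 chr13:62864753-62888282 on the minus strand, Pcx chr19:4510472-4621752 on the plus strand and Khk chr5:30921431-30931248 on the plus strand. Lrfn4 lies within Pcx on the opposite strand. Whether reads were counted by strand is not stated, so reads of Lrfn4 and Pcx cannot be told apart where they overlap. The Lrfn4 count came to 22.5 ± 3.47 FPM over the 16 kidneys (mean ± SD), against 723.95 FPM in the kidney with the lowest Pcx.

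**Figure D1:**
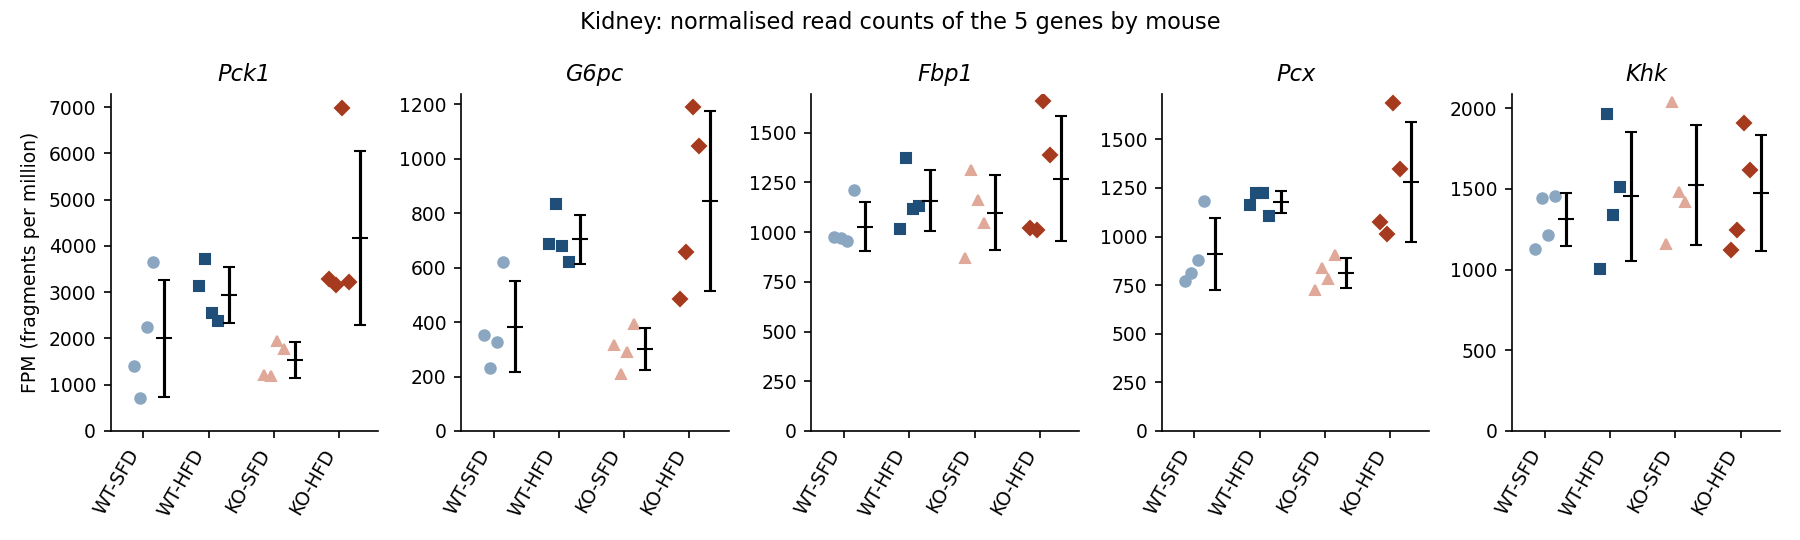
Normalised read counts (FPM, linear axes from 0) of the 5 genes in each of the 16 kidneys, with group mean ± SD beside the points (n = 4 per group). The G6pc points of the HFD mice lie above those of SFD mice of the same genotype, while the Khk groups overlap throughout.

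The first comparison was that of HFD with SFD, averaged over the genotypes and then within each. Averaged, G6pc, Pck1 and Pcx rose on HFD, and Fbp1 and Khk did not pass the test. Thus 3 of the 5 genes were called higher, where 2.89% of all 15034 genes tested were (434 genes at adjusted p under 0.05 by the edgeR quasi-likelihood test, Benjamini-Hochberg; 4.48% were called in either direction). At the limit of 0.001 used in the study, 148 genes (0.984%) were called and none of the 5. P-values of this test set a difference against the spread between mice within groups, which was estimated over all groups together. In RNA of kidney tissue fewer cells of a type and less RNA per cell cannot be told apart.

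G6pc was 354, 230.0, 326 and 620.4 FPM in the 4 WT-SFD kidneys and 686, 832, 678 and 621 FPM in the 4 WT-HFD kidneys. In KO mice it was 315, 209, 289.6 and 394 FPM on SFD and 483, 659, 1191 and 1045 FPM on HFD. Within each genotype every HFD kidney was above every SFD kidney, but in WT the margin was set by kidney 4, at 620.4 FPM on SFD against the lowest HFD value of 621 FPM. Groups separated in this way, with HFD higher, in 3.02% of all genes tested in WT and 5.02% in KO. Averaged over the genotypes G6pc was 2.27-fold higher on HFD (95% confidence interval 1.67 to 3.09; log2 fold change 1.18, SE 0.210, adjusted p = 0.00266). The exact permutation test over mice within genotype, two-sided, gave p = 0.000408, the smallest it allows (adjusted over the 25 such tests 0.0102). G6pc stayed called when any of the 16 kidneys was left out.

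Pck1 was 1408, 705 and 2243 FPM in WT-SFD kidneys 1 to 3 and 3645 FPM in kidney 4. On HFD the WT kidneys had 3125, 3715, 2547 and 2371 FPM, so that WT-SFD kidney 4 lay above 3 of the 4. The KO kidneys had 1203, 1183, 1945 and 1776 FPM on SFD and 3282, 3159, 6980.3 and 3227 FPM on HFD. The KO groups did not overlap, the WT groups did, and KO-HFD kidney 3 stood far above all others. Averaged, Pck1 was 2.00-fold higher on HFD (1.34 to 2.99; log2 fold change 1.00, SE 0.273, adjusted p = 0.0469). The exact permutation test, two-sided, gave p = 0.00286 (adjusted 0.0238). The call was at the edge of the threshold: it was lost with mouse number as a covariate (adjusted p = 0.214) and with the adipocyte markers as a covariate (adjusted p = 0.0546), and also when any 1 of 12 of the 16 kidneys was left out, at adjusted p 0.0536 to 0.0933, and the 12 were WT-SFD kidneys 1 and 3, all 4 WT-HFD kidneys, all 4 KO-SFD kidneys and KO-HFD kidneys 3 and 4.

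Pcx varied less. It was 772, 815, 878 and 1183 FPM in WT-SFD and 1161, 1225, 1225 and 1106 FPM in WT-HFD kidneys. In KO kidneys it was 724, 840.2, 781 and 904 FPM on SFD and 1075, 1013, 1687 and 1347 FPM on HFD. Again the KO groups did not overlap, and WT-SFD kidney 4 lay within the range of the WT-HFD kidneys. Averaged, Pcx was 1.43-fold higher on HFD (1.21 to 1.69; log2 fold change 0.51, SE 0.113, adjusted p = 0.0132), with an exact permutation p of 0.00122, two-sided (adjusted 0.0153), and it was called with any 1 kidney left out but not with mouse number as a covariate (adjusted p = 0.126).

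Fbp1 was 976, 971, 954 and 1210.3 FPM in WT-SFD and 1013, 1373, 1117 and 1132 FPM in WT-HFD kidneys. It was 871, 1314, 1160 and 1048 FPM in KO-SFD and 1023, 1009, 1658 and 1386 FPM in KO-HFD kidneys. The groups overlapped in both genotypes, and the averaged difference was 1.14-fold (0.958 to 1.36; log2 fold change 0.19, SE 0.119, adjusted p = 0.43).

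Khk was 1129, 1445.6, 1215 and 1458 FPM in WT-SFD and 1002, 1962, 1340.4 and 1515 FPM in WT-HFD kidneys. In KO kidneys it was 1161, 2040.1, 1481 and 1417 FPM on SFD and 1119, 1246, 1911 and 1618 FPM on HFD. The groups overlapped in both genotypes, though no WT-SFD kidney came near the highest values of the other groups (1962, 2040.1 and 1911 FPM). The averaged difference of 1.04-fold (0.83 to 1.29; log2 fold change 0.05, SE 0.151) had an adjusted p of 0.901. For Fbp1 and Khk a change by more than the upper bounds of 1.36-fold and 1.29-fold lies outside these intervals.

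**Figure D2:**
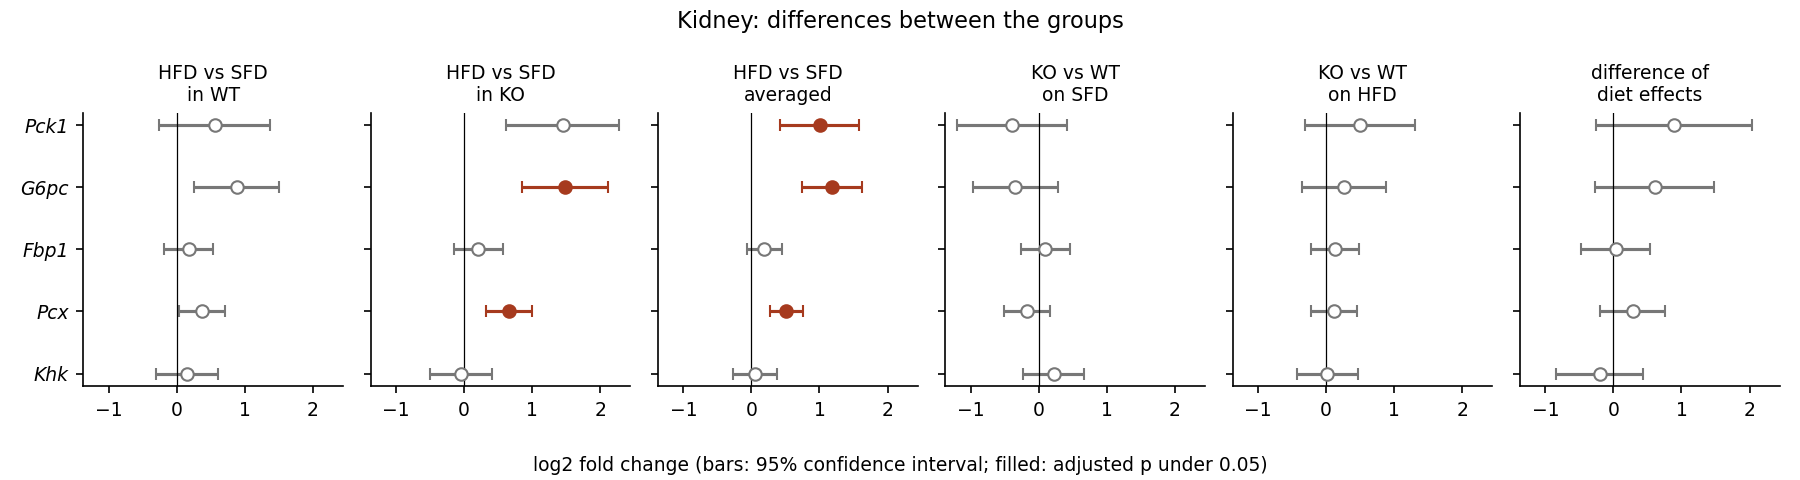
Log2 fold changes of the 5 genes with 95% confidence intervals in 6 comparisons of the 16 kidneys, filled where the adjusted p was under 0.05. G6pc and Pcx were called in KO and averaged, Pck1 averaged only, and no gene was called between the genotypes or for the difference of the diet effects.

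Within WT mice none of the 5 genes passed the test, while 0.911% of all genes did (137), 0.778% as higher and the rest as lower. The log2 fold changes on HFD were 0.88 for G6pc (SE 0.295, adjusted p = 0.308), 0.56 for Pck1 (SE 0.383, adjusted p = 0.854), 0.37 for Pcx (SE 0.160, adjusted p = 0.555), 0.17 for Fbp1 (SE 0.168) and 0.15 for Khk (SE 0.214). Within KO mice G6pc and Pcx rose, 2 of the 5 genes against 1.53% of all genes called higher (230; 346 genes or 2.3% in either direction). The log2 fold change was 1.48 for G6pc (SE 0.299, adjusted p = 0.0122) and 0.66 for Pcx (SE 0.161, adjusted p = 0.0395). Pck1 had 1.45 (SE 0.389, adjusted p = 0.0666), Fbp1 0.21 (SE 0.168, adjusted p = 0.584) and Khk -0.05 (SE 0.214, adjusted p = 0.934). The exact permutation test within KO, two-sided, gave p = 0.0286 (adjusted over the 25 such tests 0.102) for each of G6pc, Pcx and Pck1. That is the smallest p it allows within 1 genotype, and G6pc had the same values in WT. The KO call of Pck1 turned on the fit: DESeq2 gave an adjusted p of 0.0221 and a fit of the KO groups alone 0.0359, and without WT-SFD kidney 2 or 4, which enter through the shared spread, it was 0.0300 or 0.0188. The KO call of G6pc was lost without KO-SFD kidney 2 (adjusted p = 0.0536) and with mouse number as a covariate (adjusted p = 0.0978). That of Pcx was lost with mouse number (adjusted p = 0.258), the proximal tubule markers (0.0578) or the adipocyte markers (0.0532) as a covariate and in a fit of the KO groups alone (0.1). It was also lost when any 1 of 9 kidneys was left out, at adjusted p 0.0532 to 0.115: WT-SFD kidney 3, WT-HFD kidneys 3 and 4, all 4 KO-SFD kidneys and KO-HFD kidneys 3 and 4.

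A call in KO and none in WT does not show that the diet effects differ, so the difference itself was tested. It was not called for any of the 5 genes, nor for any of the 15034 genes in edgeR (486 had an unadjusted p under 0.05, and DESeq2 called 1 gene). On the log2 scale the KO effect minus the WT effect was 0.89 for Pck1 (-0.25 to 2.04), 0.60 for G6pc (-0.27 to 1.48), 0.29 for Pcx (-0.19 to 0.76), 0.04 for Fbp1 (-0.47 to 0.54) and -0.20 for Khk (-0.84 to 0.44). The upper bounds amount to 4.10-fold for Pck1 and 2.79-fold for G6pc, and differences of the diet effects up to these sizes lie within the intervals from these 16 kidneys. Single kidneys set much of these values: without WT-SFD kidney 4 the difference was 0.43 for Pck1 and 0.27 for G6pc, and without KO-HFD kidney 3 it was 0.54 and 0.40. The WT diet value of Pck1 was 1.02 without WT-SFD kidney 4 and 0.28 without WT-SFD kidney 2, and was not called in either case (adjusted p = 0.414 and 0.999, edgeR).

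The second comparison, of KO with WT on the same diet, addressed whether loss of the receptor from VSMC went with other levels of these genes in the kidney. None of the 5 was called. On SFD the log2 fold changes were -0.39 for Pck1 (-1.20 to 0.42), -0.34 for G6pc (-0.96 to 0.28), -0.17 for Pcx (-0.51 to 0.17), 0.10 for Fbp1 (-0.26 to 0.45) and 0.22 for Khk (-0.24 to 0.67). On HFD they were 0.50 for Pck1 (-0.31 to 1.31), 0.26 for G6pc (-0.36 to 0.88), 0.12 for Pcx (-0.22 to 0.46), 0.13 for Fbp1 (-0.23 to 0.49) and 0.02 for Khk (-0.43 to 0.47). Few genes at all were called between the genotypes, 0.0133% on SFD (2 genes), 0.00665% on HFD (1 gene) and 0.0133% averaged over the diets (2 genes). Egfr, the targeted gene, was 36.9 to 60.8 FPM in the 16 kidneys. It had no genotype call there (log2 fold change 0.00 averaged over the diets, adjusted p = 0.999).

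The relatives of the 5 genes, which catalyse the same steps elsewhere, had no diet call. Pck2, the mitochondrial carboxykinase, was at 25.6 ± 6.62 FPM over the 16 kidneys (log2 fold change averaged over the genotypes 0.03, adjusted p = 0.941). G6pc3, the widely expressed glucose-6-phosphatase, was at 82.5 ± 10.6 FPM (-0.07, adjusted p = 0.75), and Fbp2, the muscle bisphosphatase, at 16.1 ± 5.26 FPM (-0.08, adjusted p = 0.886). G6pc2, the islet form, reached at most 0.19 FPM and was not tested. Thus 0 of the 3 relatives tested were called, with a median log2 fold change of -0.07 beside -0.01 over all genes. The counts for the lists that follow are averaged over the genotypes unless a genotype is named, and stand beside 4.48% of all genes called in either direction.

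Of the genes around Khk that handle fructose and polyols, 9 were listed, 8 were tested and 0 were called in WT, in KO or averaged (median log2 fold change 0.08 averaged). Tkfc stood at 497 ± 55.8 FPM in WT-SFD and 575 ± 84.9 FPM in WT-HFD kidneys (averaged log2 fold change 0.29, adjusted p = 0.155). Slc2a5, the fructose transporter GLUT5, was between 110.5 and 227 FPM (-0.02, adjusted p = 0.953). Sord and Akr1b3, the enzymes that make fructose from sorbitol and sorbitol from glucose, had log2 fold changes of 0.08 (adjusted p = 0.753) and -0.89 (SE 0.319, adjusted p = 0.137).

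The reversible steps that gluconeogenesis shares with glycolysis were also without a call, in 0 of 11 tested genes (12 listed, 1 without counts, median log2 fold change -0.03 averaged). In the malate and aspartate shuttle and lactate entry, 1 of 14 tested genes fell and none rose (15 listed, 1 without counts, median -0.04). It was Slc25a12, a mitochondrial aspartate and glutamate carrier, with a log2 fold change of -0.23 (adjusted p = 0.0393).

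Of the genes for amino acid and glycerol entry 4 of 12 tested were called higher and 1 lower (16 listed, median 0.18), beside 2.89% of all genes higher and 1.6% lower. Prodh2, which starts the breakdown of hydroxyproline, was 46.3 to 73.7 FPM in the 8 SFD kidneys and 126 to 290.2 FPM in the 8 HFD kidneys. The diets did not overlap, as for 0.998% of all genes in that direction, and the log2 fold change was 1.70 in WT (adjusted p = 0.000515) and 1.85 in KO mice (adjusted p = 0.000159). Glud1, the glutamate dehydrogenase that feeds glutamine carbon into the citric acid cycle, rose by 0.45 on the log2 scale (SE 0.0867, adjusted p = 0.00534). Slc7a9, a subunit of the cystine and basic amino acid carrier of the proximal tubule, rose by 0.58 (adjusted p = 0.00691). Psat1, an enzyme of serine synthesis and so not a step toward glucose, rose by 1.20 (adjusted p = 0.000119). Slc1a5, a glutamine transporter, fell by 0.36 (adjusted p = 0.00672).

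Of the genes for glucose transport and phosphorylation 6 were tested (7 listed, 1 without counts), and 2 rose and 1 fell (median 0.22). Slc5a2, the luminal glucose transporter SGLT2 of the early proximal tubule, was 281 to 470 FPM in the 8 SFD kidneys and 667 to 1453 FPM in the 8 HFD kidneys, without overlap. Its log2 fold change was 1.20 in WT (adjusted p = 0.00568) and 1.54 in KO mice (adjusted p = 0.000625). Slc2a2, the basolateral transporter GLUT2 through which proximal tubule cells release glucose, rose by 0.63 averaged (SE 0.102, adjusted p = 0.00124), with 0.47 in WT (adjusted p = 0.228) and 0.79 in KO mice (adjusted p = 0.00637). Slc2a4, the insulin-responsive transporter GLUT4, fell by 0.49 (adjusted p = 0.000517).

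Among the opposing steps of glycolysis and pyruvate oxidation 1 of 12 tested genes was called (18 listed, 5 without counts, median -0.04). It was Pklr, the pyruvate kinase of liver, kidney and red cells, which works against Pck1 and Pcx. Pklr was 29.1 to 41.6 FPM in the 8 SFD and 60.4 to 113 FPM in the 8 HFD kidneys, and its log2 fold change was 1.09 in WT (adjusted p = 0.00204) and 1.30 in KO mice (adjusted p = 0.000442). Pdk4, which turns pyruvate oxidation off, had 0.32 (SE 0.286, adjusted p = 0.59).

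Of 31 tested regulators of gluconeogenic transcription (34 listed) 1 was called averaged (median 0.04), a share below the 4.48% of all genes. Ppara, the fatty acid receptor of the nucleus, rose by 0.79 (SE 0.206, adjusted p = 0.0384). Hnf4a, a factor that maintains proximal tubule genes, had 0.04 (adjusted p = 0.828). Foxo1 and Ppargc1a, the factors best known for switching on Pck1 and G6pc in fasting liver, had 0.08 (adjusted p = 0.674) and -0.09 (adjusted p = 0.768), and Txnip, a glucose-responsive transcript, had 0.15 (adjusted p = 0.661). In KO mice 2 of the regulators fell, where 0.772% of all genes were called lower. Trib3, a pseudokinase of the stress response, was 1.4 to 15.8 FPM in KO-SFD and 0.955 to 1.34 FPM in KO-HFD kidneys (log2 fold change -2.67, adjusted p = 0.013), and Nr0b2, a nuclear repressor, was 2.45 to 5.07 and 1.77 to 2.17 FPM (-0.89, adjusted p = 0.0482). The WT kidneys had 0.813 to 2.08 FPM of Trib3 on either diet, so the difference rested on the KO-SFD kidneys.

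**Figure D3:**
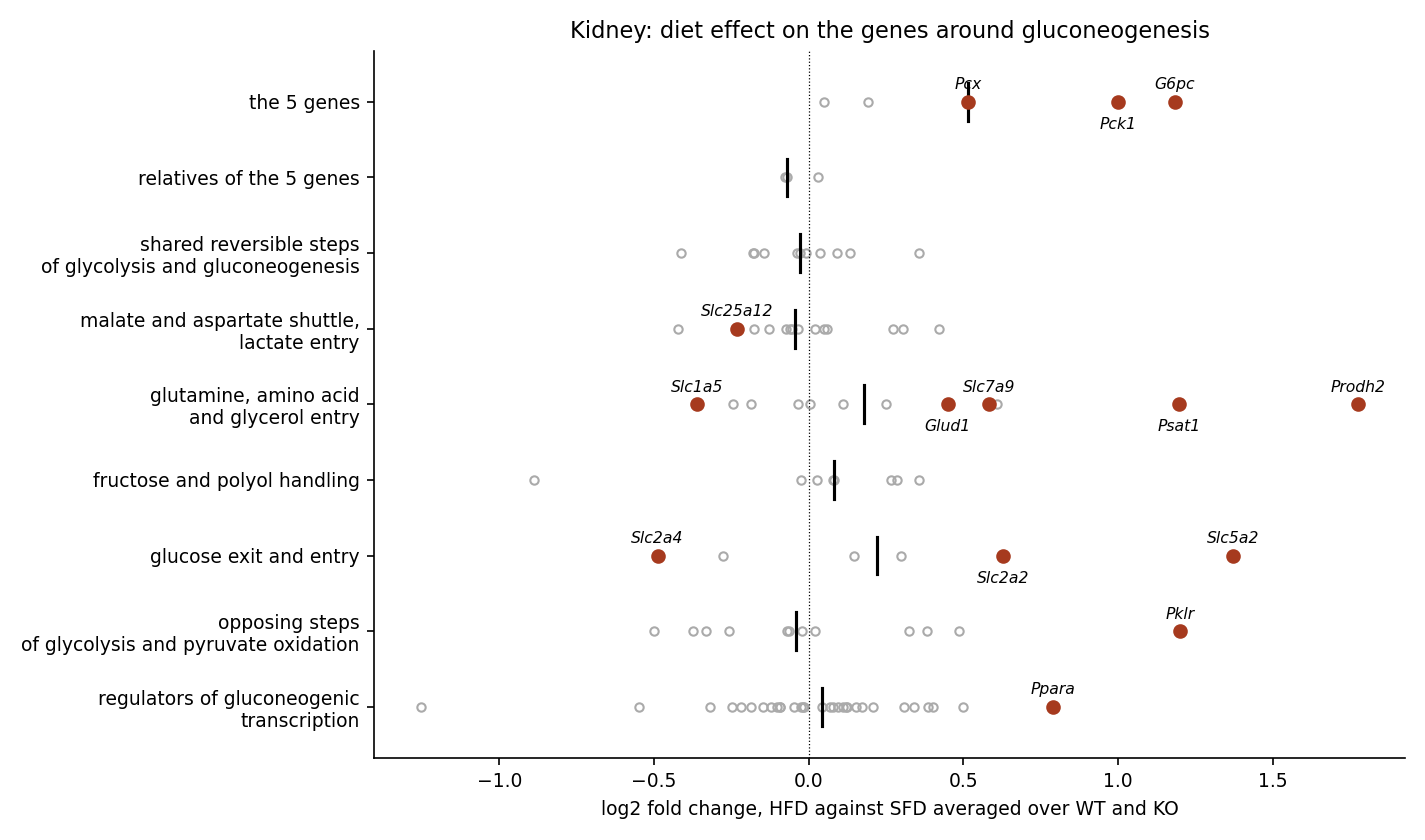
Log2 fold changes on HFD, averaged over WT and KO, of the 5 genes and of the tested genes of 8 surrounding lists. Each point is a gene, filled and named where the adjusted p was under 0.05, and the bar is the list's median, which lies at 0.51 for the 5 genes and between -0.07 and 0.22 for the other lists.

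Over all 16 kidneys the highest correlations among the 5 genes were those within Pck1, G6pc and Pcx and that of Fbp1 with Khk. G6pc and Pcx had the highest (Pearson's r of log2 FPM 0.92, Spearman's rho 0.90, n = 16), before Pck1 and G6pc (r 0.88, rho 0.84), Pck1 and Pcx (r 0.86, rho 0.85) and Fbp1 and Khk (r 0.83, rho 0.80). The permutation p-values of these r were 1e-05 (the smallest 100000 permutations can give) for the first 3 pairs and 5e-05 for Fbp1 and Khk, with adjusted values of 3.33e-05 and 0.000125 over the 10 pairs. For rho they were 1e-05, 9e-05, 8e-05 and 0.00041, adjusted 0.0001, 0.0003, 0.0003 and 0.00102. All 16 kidneys were permuted without regard to genotype or diet, so diet differences that 2 genes share enter these p-values. No p-value was computed for r within diets or groups.

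As 3 of the 5 genes differed by diet, these relations were recomputed within each diet. G6pc with Pcx had r 0.71 in the 8 SFD and 0.87 in the 8 HFD kidneys, Pck1 with G6pc 0.81 and 0.68, Pck1 with Pcx 0.71 and 0.78, and Fbp1 with Khk 0.86 and 0.89. Without the 2 kidneys farthest from the median of the gene named first, r was 0.95, 0.84, 0.86 and 0.83. Pck1 and Khk had r 0.16 and rho 0.16 (permutation p = 0.554 and 0.542), G6pc and Khk r 0.16 and rho 0.13 (permutation p = 0.55 and 0.632), and Pcx and Khk had r 0.35 and rho 0.37 (permutation p = 0.189 and 0.158). Within the diets these 3 pairs had r -0.09, -0.38 and 0.25 in the SFD and 0.50, 0.73 and 0.65 in the HFD kidneys, so that the pooled value stood between unlike values, and without the 2 farthest kidneys r was -0.02, 0.55 and 0.07. Fbp1 lay between, with r 0.72 and rho 0.70 to Pcx (permutation p = 0.00143 and 0.00328), 0.60 and 0.57 to Pck1 (p = 0.0158 and 0.0247) and 0.57 and 0.51 to G6pc (p = 0.0217 and 0.0477). Adjusted over the 10 pairs these permutation p-values were 0.00286 and 0.00656, 0.0263 and 0.0411, and 0.0311 and 0.0681. The rho of Fbp1 to G6pc was thus not under 0.05 after adjustment. In the HFD kidneys Fbp1 had r 0.91 to Pcx, 0.90 to G6pc and 0.74 to Pck1, against 0.50, 0.02 and 0.34 in the SFD kidneys; whether r differed between the diets was not tested. Without the 2 kidneys farthest from the median of the gene named first, r fell to 0.34 for Pck1 and Fbp1 and to 0.47 for Fbp1 and Pcx, and was 0.78 for G6pc and Fbp1. On deviations from the group means Fbp1 with Khk had r 0.89 and Fbp1 with Pcx 0.80, above G6pc with Pcx (0.77), Pck1 with G6pc (0.75) and Pck1 with Pcx (0.71), so the order of the pairs over all kidneys did not hold within groups.

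**Figure D4:**
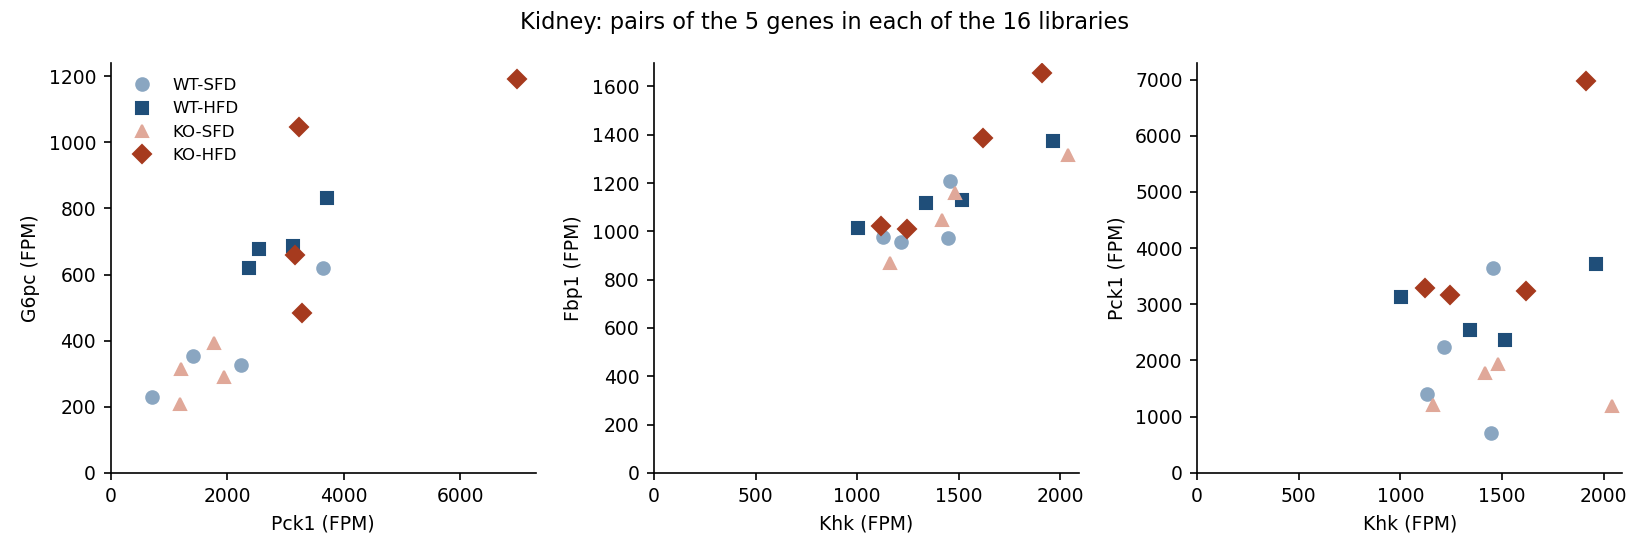
FPM of Pck1 against G6pc, Khk against Fbp1 and Khk against Pck1 in each of the 16 kidneys (linear axes from 0), with a symbol for each group. The first pairing runs from low SFD to high HFD kidneys, the second runs across all groups, and in the third kidneys of like Khk differ widely in Pck1.

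The genes whose levels were most like each of the 5 were sought among all tested genes, by Pearson's r of log2 CPM over the 16 kidneys, as a description. For Pck1 they were Slc13a4, a sulphate transporter (r 0.95), Mogat2, an enzyme of triglyceride synthesis (0.94), and Tk1, thymidine kinase (0.93). For G6pc they were Glud1 (0.96), Mttp, the microsomal triglyceride transfer protein (0.95), and Enpp2, autotaxin (0.95). For Pcx they were Glud1 (0.95), Spc25, a kinetochore protein (0.94), and Ttr, transthyretin (0.94). All 8 of these genes also rose with diet, by 0.45 (Glud1) to 1.94 (Ttr) on the log2 scale. Of all genes tested, 2.89% were called higher. The 8 were picked, over the same kidneys, for likeness to genes that differed by diet, so such a rise was largely set by the choice.

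The neighbours of Fbp1 and Khk had no diet call, which was likewise largely set by the choice. Those of Fbp1 were Auh, an enzyme of leucine breakdown (r 0.94), Dcxr, L-xylulose reductase (0.93), and Slc25a10, the mitochondrial dicarboxylate carrier (0.93). Those of Khk were Atp5c1, a subunit of ATP synthase (0.97), Idh3b, of the mitochondrial isocitrate dehydrogenase (0.97), and Gm5537 (0.96), and their averaged log2 fold changes were 0.05, 0.02 and 0.02. Taken on deviations from the group means, which removes diet and genotype, other genes came first: Tnfaip8 for Pck1 (0.93, with Slc13a4 next), Aass for G6pc (0.90), Sp5 for Fbp1 (0.96), Aldh7a1 for Pcx (0.91) and Cyc1, of respiratory complex III, for Khk (0.98).

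Some other measures moved beside these results. Of 17 tested proximal tubule markers 2 rose on HFD, Slc22a8 by 0.98 on the log2 scale (adjusted p = 0.000138) and Slc5a12 by 0.94 (adjusted p = 0.00537), with a list median of 0.03. The kidney with the most proximal tubule marker RNA, WT-SFD kidney 4 at 53609 FPM, was also the WT-SFD kidney with the most of all 5 genes. The kidney with the least of that RNA, WT-HFD kidney 1, had the lowest Khk of all 16 kidneys (1002 FPM). Its G6pc of 686 FPM was above that of every SFD kidney, and it had 3125 FPM of Pck1, 1161 of Pcx and 1013 of Fbp1. With the mean of these markers as a covariate the averaged calls of G6pc, Pck1 and Pcx remained, and the KO call of Pcx was lost (adjusted p = 0.0578). Collecting duct markers had a median of -0.23, with 0 of 8 called. Adipocyte markers summed to between 334 FPM in WT-SFD kidney 1 and 1082 FPM in KO-SFD kidney 4, with Dgat2 the most abundant in every kidney. Of these 13 markers 1 rose and 2 fell (median -0.49), and with their mean as a covariate the averaged adjusted p of Pck1 was 0.0546.

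Clock genes, which follow the hour, had 0 of 15 called and a median log2 fold change of 0.21. Their summed level ran from 480.4 FPM in WT-SFD kidney 2, the kidney with the least Pck1, to 1513 FPM in KO-SFD kidney 3. The latter had 1945 FPM of Pck1, the most of the KO-SFD kidneys but less than every HFD kidney. The numbers of the mice in the labels, whose meaning is not stated, also went with diet in part. With mouse number as a covariate the averaged log2 fold changes were 0.72 for Pck1 (adjusted p = 0.214) and 0.37 for Pcx (adjusted p = 0.126), which were then not called, whereas G6pc kept its averaged call and lost that in KO mice (1.15, adjusted p = 0.0978). The part of any of these in the diet differences was not tested.

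In the aorta the 5 genes were a different set. Khk was low, G6pc and Fbp1 were close to absent, and Pck1 and Pcx were high in a few libraries only. Those libraries stood apart before any comparison. The summed level of 13 adipocyte markers was 4339 and 3016 FPM in WT-SFD aortae 1 and 2, 2583 FPM in KO-SFD aorta 1 and 898 FPM in KO-SFD aorta 2, against 59.5 to 231 FPM in the other 10 aortae. Fabp4 was the most abundant of them in every aorta. Adipoq, the fat cell hormone adiponectin, was 195, 148, 111 and 47.8 FPM in the same 4 aortae and 1.37 to 14.8 FPM in the rest, and Ucp1, a marker of brown fat, was 580.2, 256, 194 and 73.3 FPM and 0.54 to 27.5 FPM. Per the labels, fat had been taken off the aortae. The aorta itself was plain from Myh11, at 4015 to 7283 FPM.

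On SFD the WT aortae had 839, 639 and 13.0 FPM of Pck1, and on HFD 18.1, 16.6, 45.0 and 42.2 FPM. In KO mice it was 371, 73.3 and 5.98 FPM on SFD and 9.41, 19.7, 14.9 and 5.34 FPM on HFD. The high values were those of the 4 libraries rich in adipocyte markers, and the third SFD aorta lay below the HFD aortae in WT and within their range in KO mice. Pcx was 362, 250.2 and 10.5 FPM in WT-SFD and 7.45, 8.74, 12.6 and 10.5 FPM in WT-HFD aortae. It was 195, 62.8 and 11.5 FPM in KO-SFD and 5.01, 10.9, 7.12 and 6.16 FPM in KO-HFD aortae, high in the same 4 libraries. As background, both enzymes are made in fat cells, where they serve the synthesis of glycerol for triglycerides.

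Averaged over the genotypes both fell on HFD in the aorta, where 3.47% of the 14796 genes tested were called lower (514; 561 genes or 3.79% in either direction). That share was unstable: edgeR called 0 or 1 gene in either direction without any 1 of 9 of the 14 aortae, and between 164 genes (without KO-HFD aorta 2) and 1855 genes (without WT-SFD aorta 3) without any 1 of the others. The log2 fold change was -3.80 for Pck1 (SE 0.789, adjusted p = 0.0233) and -4.00 for Pcx (SE 0.633, adjusted p = 0.0208), and 12 of the 13 adipocyte markers fell with them (median -3.55). The 3 aortae richest in those markers were then left out, a choice made after the values were seen, which kept KO-SFD aorta 2 and left 1 WT-SFD and 2 KO-SFD aortae. The lone WT-SFD aorta is assumed to vary like the other groups, and the fewer SFD libraries alone make a call harder. The log2 fold change was -0.19 for Pck1 (adjusted p = 0.982) and -1.20 for Pcx (adjusted p = 0.835). With the mean of the markers as a covariate it was 0.51 for Pck1 (adjusted p = 0.724) and -0.87 for Pcx (adjusted p = 0.581). Leaving out single aortae ended the call of Pck1 in 10 of 14 cases (adjusted p 0.0501 to 0.0963) and that of Pcx in 9 of 14 (0.0501 to 0.0839). Without KO-SFD aorta 1 alone the log2 fold change was -2.83 for Pck1 and -3.35 for Pcx.

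Within WT or KO mice edgeR called no gene by diet in the aorta (2464 and 1106 of 14796 had an unadjusted p under 0.05, and DESeq2 called 666 in WT). In WT edgeR called 527 genes without the filter on low counts and 219 with library totals in place of TMM. Pck1 had -4.03 in WT (adjusted p = 0.0867) and -3.58 in KO mice (adjusted p = 0.556), and Pcx -4.40 (adjusted p = 0.078) and -3.60 (adjusted p = 0.556). Without KO-SFD aorta 1 the KO values were -1.63 for Pck1 and -2.31 for Pcx. Without WT-SFD aorta 1 the WT values were -3.43 and -3.74. Both genes were called in WT without WT-SFD aorta 3 (adjusted p = 0.00335 for Pck1 and 0.000729 for Pcx), KO-SFD aorta 1 (0.0404 and 0.035) or KO-SFD aorta 3 (0.0439 and 0.0403). Between the genotypes neither gene was called on either diet, where 0.0811% of genes were (12 on each). Egfr was 39.5 to 54.3 FPM in WT-SFD and 51.2 to 65.1 FPM in WT-HFD aortae, and 26.8 to 35.5 and 27.5 to 40.6 FPM in the KO aortae. Every KO aorta was below every WT aorta of the same diet, which held for 4.37% of all genes on SFD and 2.03% on HFD, and averaged over the diets Egfr was lower in KO by 0.67 on the log2 scale (log2 fold change -0.67, adjusted p = 0.0141, where 0.196% of genes were called). Within a diet Egfr was not called by edgeR (-0.64 on SFD, adjusted p = 0.547, and -0.70 on HFD, adjusted p = 0.129).

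Khk was 1.47 to 6.14 FPM over all 14 aortae. It was 4.91, 4.31 and 5.63 FPM in WT-SFD, 4.49, 5.13, 3.65 and 6.14 in WT-HFD, 1.47, 4.18 and 4.99 in KO-SFD and 5.26, 3.10, 3.76 and 4.79 in KO-HFD aortae, with overlap between the diets (averaged log2 fold change 0.10, SE 0.236, adjusted p = 0.878). The lowest value was that of KO-SFD aorta 1, a library rich in adipocyte markers. G6pc had 16 counts over the 14 aortae together, at most 5 in 1 of them and 0 in 8. Fbp1 had 4 counts, at most 2 in 1 aorta and 0 in 11. A count of 0 allows up to 3 counts, which was 0.272 to 0.433 FPM for G6pc and 0.24 to 0.433 FPM for Fbp1 in the aortae concerned, a limit that covers counting error only. Neither gene passed the filter, and no fold change was drawn for them.

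Per kilobase of exon the mean level in the aorta was 44.0 FPM per kb for Pck1, 14.4 for Pcx and 2.46 for Khk, with G6pc (0.0497) and Fbp1 (0.0202) at the floor. The means of Pck1 and Pcx were carried by the 4 libraries rich in adipocyte markers, and by the median Khk (2.58) lay above Pcx (2.25) and below Pck1 (5.51). In the kidney the median was 717 FPM per kb for Pck1, 220 for Pcx and 796 for Khk. The tissues were sequenced by different providers, so these levels are set side by side without a test.

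**Figure D5:**
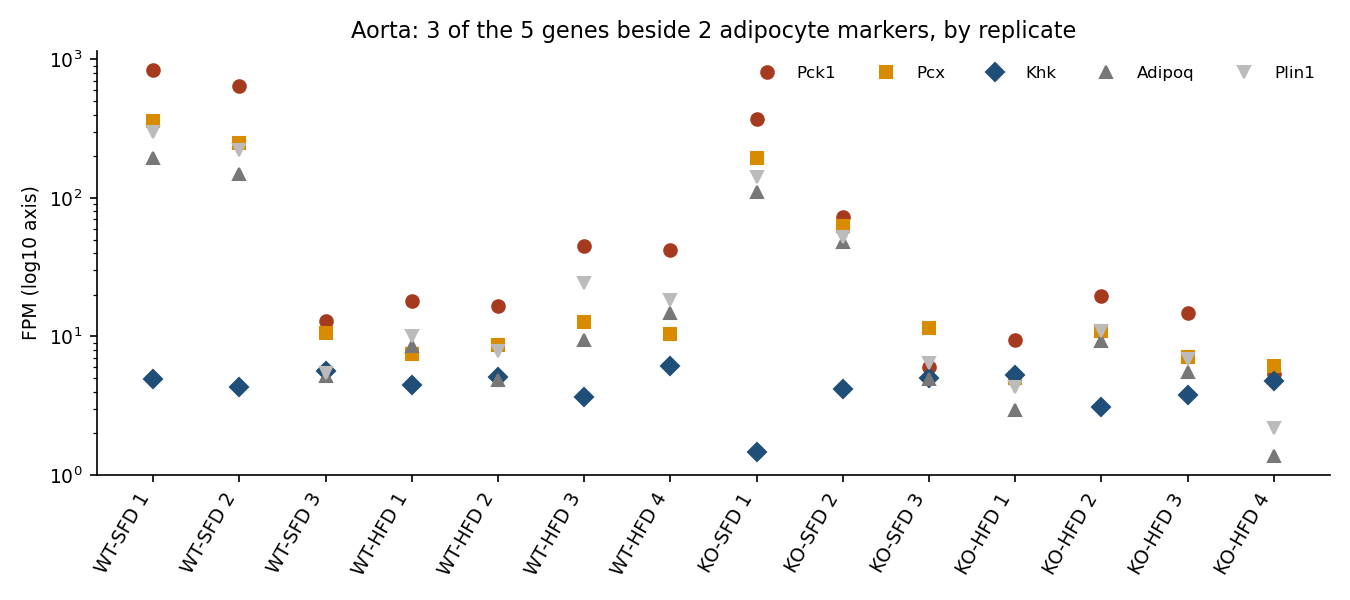
FPM (log10 axis) of Pck1, Pcx and Khk in each of the 14 aortae, beside the adipocyte markers Adipoq and Plin1. Pck1 and Pcx are high in WT-SFD aortae 1 and 2 and KO-SFD aortae 1 and 2, where both markers are also high, and Khk stays between 1.47 and 6.14 FPM.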

How the data were processed

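Kidney (16 libraries) and aorta (14 libraries) RNA had been isolated and depleted of ribosomal RNA. The authors trimmed reads (cutadapt), aligned them to mm10 (TopHat) and counted them per gene (featureCounts); the deposited values were raw counts. The kidney and the aorta were sequenced by different providers. The authors named genes with BiomaRt. Strand setting, the gene models used for counting and treatment of multi-mapping reads were not given in the sources used here. Genes on chromosomes 9, X and Y, mitochondrial genes and some on chromosome 8 had no counts and were not analysed here.

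From these counts edgeR 4.0.16 (R 4.3.3) was run per tissue: filterByExpr by group, TMM scaling, 1 coefficient per group, glmQLFit and glmQLFTest, Benjamini-Hochberg over all genes tested (15034 in kidney, 14796 in aorta), calls at adjusted p under 0.05 and, as in the study, 0.001. FPM are counts per 1000000 of the TMM-scaled library size. Exon lengths and positions came from GENCODE (GRCm38), promoters from RefSeq. The fits were tested on simulated counts, with 1 dispersion for all genes of a tissue. For HFD against SFD in WT, 93% of 2-fold changes were called in the kidney and 49% in the aorta. There were 12 and 8 false calls. Genes with a wider spread than that dispersion were not simulated. Two-sided exact permutation tests permuted mice within genotype, and correlations used 100000 permutations. DESeq2 1.42.0, other scalings and filters, marker covariates and omission of single mice were alternatives. Mouse number as a covariate, the adipocyte covariate in the kidney and omission of 3 aortae were added after seeing the data. Members and lists were chosen with earlier results of these data known. Named genes were the 5 members, their relatives, a set of pathway genes whatever their values, every other pathway gene called in a kidney comparison, the 3 genes most like each member, Egfr and the leading marker genes; genes named outside that rule (Slc22a8, Slc5a12, Adipoq, Ucp1, Plin1, Myh11 and those of the deviation ranking) were chosen after their values were seen. Some genes of that rule and a motif of the planned search are not reported here.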

Additional observations from a re-analysis of the deposited data

Results flagged for a closer look

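In 2 of 32 groups of 4 mice tested, 1 library lay further from the others than expected of the group's range (Dixon's criterion at 95%); chance alone gives about 1 in 20 groups. Pck1 in KO-HFD kidney 3 was 6980.3 FPM, against 3159 to 3282 FPM in the other 3 kidneys of the group. That kidney also had the highest Fbp1, Pcx and G6pc of all 16. Fbp1 in WT-SFD kidney 4 was 1210.3 FPM, against 954 to 976 FPM in the other 3, and this kidney had the highest summed proximal tubule markers of all 16. The part of that in the value was not tested.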

How the results depend on the processing

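No paired analysis was possible because the labels give no replicate numbers that groups share, and those used here are in accession order. Averaged over the genotypes, G6pc kept its kidney call under every alternative at adjusted p under 0.05, including the omission of any mouse. Pcx lost it with mouse number as a covariate, and Pck1 lost it with that covariate, with the adipocyte markers as a covariate and without any 1 of 12 of the 16 mice. In the aorta the calls of Pck1 and Pcx were lost without the 3 aortae richest in adipocyte markers, which leaves 1 WT-SFD aorta, assumed to vary like the other groups, and 2 KO-SFD aortae, so that the WT diet and SFD genotype values of that setting rest on 1 WT-SFD library. Where a value changed, the cause was not tested.

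DESeq2 called more genes: in the kidney 263 by diet in WT, 695 in KO and 1101 averaged, 26 between the genotypes on SFD and 15 averaged, and 1 for the difference of diet effects; in the aorta 666, 8 and 1007 by diet, 21 on SFD, 40 on HFD and 56 averaged between the genotypes, and 2 for the difference. With RLE factors the averaged genotype call in the kidney was 1 gene. With library totals in place of TMM it was 1 gene, as on SFD, and in the aorta 219 genes were called by diet in WT. Without the filter on low counts 4 genes were called between genotypes on SFD in the kidney, and in the aorta 527 by diet in WT, 6 in KO, 19 between genotypes on SFD and 25 on HFD. With only the groups compared in the fit, 228 genes were called by diet in KO kidneys, and 3 and 27 between genotypes in aortae on SFD and HFD. At adjusted p under 0.001 the kidney had 23 genes by diet in WT, 48 in KO, 148 averaged, 0 between genotypes on either diet and 1 averaged, and the aorta 0 by diet averaged and 4, 5 and 12 between genotypes on SFD, on HFD and averaged.

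With the proximal tubule markers as a covariate, 1 gene on SFD and 0 on HFD were called between the genotypes. With the adipocyte markers these were 1 and 0, and 1 averaged; in the aorta 22 and 25, and 1 by diet averaged. With mouse number, the kidney had 167 genes by diet in KO, 378 averaged, 1 between genotypes on SFD and 1 averaged, and the aorta 19 between genotypes on SFD and 0 by diet averaged. Without the 3 aortae, 3, 28 and 18 genes were called between genotypes on SFD, on HFD and averaged, and 0 by diet averaged.

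Some log2 fold changes of the 5 genes changed sign. In the kidney with the proximal tubule covariate they became, by diet, -0.037 for Fbp1 in KO and -0.12 for Khk averaged, by genotype -0.040 for Khk on HFD and 0.025 for G6pc and 0.0013 for Pcx averaged, and -0.18 for Fbp1 in the difference of diet effects. With mouse number they were 0.31 for Pck1, 0.059 for G6pc and 0.080 for Pcx by genotype on SFD, 0.25 for G6pc and 0.16 for Pcx averaged, -0.046 for Khk by diet and -0.024 for Fbp1 in the difference. In the aorta the WT diet value of Khk became 0.076 with library totals and 0.0042 without the filter. With the adipocyte covariate Pck1 by diet was 0.36 in WT, 0.65 in KO and 0.51 averaged, the last from a called -3.80, Khk by diet was -0.083 in KO and -0.25 averaged, and Pcx by genotype on HFD was 0.16. With mouse number, by genotype, Pck1 was 0.41, 0.26 and 0.33 and Pcx 0.62, 0.76 and 0.69 on SFD, on HFD and averaged, Pck1 was -0.15 in the difference and Khk -0.24 by diet averaged. Without the 3 aortae, with 1 WT-SFD library left, Pck1 was 1.23 by diet in WT, 1.58 by genotype on SFD and 0.16 averaged, Pcx 1.8 and 0.69, Khk -0.14 by diet in KO and -0.17 averaged, and the differences of diet effects were -2.84 for Pck1 and -2.21 for Pcx.

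Leaving out each mouse in turn gave 196 to 403 genes by diet in KO kidneys, 0 to 4, 0 to 1 and 1 to 3 between genotypes on SFD, on HFD and averaged, and in the aorta 0 to 1801 by diet in WT, 0 to 1855 averaged, and 5 to 28 and 6 to 20 between genotypes on SFD and HFD. Among the log2 fold changes of the 5 genes that changed sign, Khk by diet in the kidney ran from -0.024 to 0.28 in WT, from -0.19 to 0.12 in KO and from -0.035 to 0.14 averaged. By genotype in the kidney, Pck1 ran from -0.67 to 0.072 and Fbp1 from -0.0026 to 0.19 on SFD; Fbp1 from -0.014 to 0.22, Pcx from -0.033 to 0.21 and Khk from -0.12 to 0.19 on HFD; Pck1 from -0.12 to 0.29, G6pc from -0.14 to 0.13 and Pcx from -0.10 to 0.051 averaged; and Fbp1 from -0.11 to 0.13 in the difference of diet effects. In the aorta Khk by diet ran from -0.15 to 0.086 in WT, from -0.14 to 0.56 in KO and from -0.081 to 0.28 averaged, and the difference of diet effects from -0.11 to 0.55 for Khk and from -0.16 to 2.40 for Pck1.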
